A study of Homo sapiens with 9 samples.

Results

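A set of 10 genes of the Hippo pathway output were followed in A498 cells after depletion of BMAL1 or ARNT. They were chosen by gene name as 10 of the 27671 genes in the count table, and all 10 were found. CTGF and CYR61 are the older symbols of CCN2 and CCN1 and are the names used in the table. The genes are the coactivators YAP1 and WWTR1 (TAZ), the DNA-binding factors TEAD1 and TEAD4, the targets CTGF, CYR61 and ANKRD1, and the genes AMOTL2, AJUBA and LATS2, which are both YAP targets and regulators of YAP. A498 is an established cell line from a human clear cell renal cell carcinoma (ccRCC). The cells carried a lentiviral pLKO.1 vector with a control hairpin (shControl), a hairpin against BMAL1 (shBMAL1) or a hairpin against ARNT (shARNT), and cells of all 3 groups were selected and kept in puromycin. Each group had 3 biological replicates, which gave 9 RNA-seq libraries. ARNT pairs with the hypoxia-inducible factor subunits HIF1α and HIF2α. BMAL1 pairs with CLOCK, and the study reports that it also forms an active dimer with HIF2α. The study asked how much ARNT and BMAL1 each contribute to gene expression driven by HIF2α. The labels gave 1 group per target and did not name the construct. The study's methods list 1 construct against ARNT and, against BMAL1, a gifted construct and an independent one. With 1 group per target, an effect of a hairpin and an effect of losing its target cannot be told apart.

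YAP and TAZ are coactivators without a DNA-binding domain of their own, and they reach their target genes mainly through TEAD factors. The kinases LATS1 and LATS2, activated by MST1 and MST2 with the adaptors SAV1 and MOB1, phosphorylate YAP and TAZ, which holds them in the cytoplasm or marks them for degradation. Because this control acts on the proteins, the RNA of YAP1 or WWTR1 is no measure of their activity, and the RNA of targets such as CTGF and CYR61 is commonly read instead. LATS2 and AMOTL2 are themselves induced by YAP and restrain it, which forms a negative feedback loop.

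The promoters show where a TEAD factor could recognise these genes. RefSeq promoters on GRCh38.p14, from 250 bases before to 50 bases after a transcription start, were found for 7 of the 10 genes, and WWTR1, AMOTL2 and AJUBA had 2 starts each. The core TEAD motif GGAATG, searched on both strands, was present in 6 of the 10 promoters, 1 for each of 6 genes, and absent from both WWTR1 promoters. Among all 35116 promoters in the table, 14% held the motif, 1.37% held it at least 2 times and 0.128% held it at least 3 times. The 3 promoters that hold several copies or a copy beside an E-box at the start are printed in full, 5′ to 3′ along the transcribed strand, with the motif in capitals. The CTGF promoter (chr6:131951323-131951622, minus strand) held 3 copies, which began at -169, -104 and -95 from the start.
CTGF: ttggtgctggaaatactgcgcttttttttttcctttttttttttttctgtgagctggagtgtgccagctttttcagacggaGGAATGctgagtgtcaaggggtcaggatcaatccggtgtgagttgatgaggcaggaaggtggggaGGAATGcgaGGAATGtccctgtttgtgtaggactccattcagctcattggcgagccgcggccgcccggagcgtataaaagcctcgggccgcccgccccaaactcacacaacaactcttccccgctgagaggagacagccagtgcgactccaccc
The ANKRD1 promoter (chr10:90921038-90921337, minus strand) held 2 copies, at -220 and -128.
ANKRD1: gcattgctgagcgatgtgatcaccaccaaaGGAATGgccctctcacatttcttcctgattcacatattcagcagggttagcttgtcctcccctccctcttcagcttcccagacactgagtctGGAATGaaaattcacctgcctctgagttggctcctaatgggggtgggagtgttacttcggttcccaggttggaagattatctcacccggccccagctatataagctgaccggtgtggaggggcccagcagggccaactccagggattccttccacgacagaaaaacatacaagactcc
The LATS2 promoter (chr13:21061537-21061836, minus strand) held 1 copy just after the start, at 10, and an E-box (CACGTG, the site bound by BMAL1 with CLOCK) at -5.
LATS2: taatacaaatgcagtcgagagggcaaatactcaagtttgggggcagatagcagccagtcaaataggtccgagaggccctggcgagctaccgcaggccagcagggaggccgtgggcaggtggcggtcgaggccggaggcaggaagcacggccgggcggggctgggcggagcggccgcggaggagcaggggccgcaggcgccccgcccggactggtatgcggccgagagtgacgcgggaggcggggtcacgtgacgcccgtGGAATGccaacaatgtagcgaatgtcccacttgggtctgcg

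The other copies are shown in a window of 30 bases, again with the motif in capitals. AMOTL2 (downstream one of 2 starts, promoter chr3:134374398-134374697, minus strand) held the motif as its complement CATTCC at -69. AJUBA (downstream one of 2 starts, chr14:22976793-22977092, minus strand) held the motif at -59, and YAP1 (chr11:102110197-102110496, plus strand) held it at -162.
AMOTL2: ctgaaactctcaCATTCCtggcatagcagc
AJUBA: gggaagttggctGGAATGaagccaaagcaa
YAP1: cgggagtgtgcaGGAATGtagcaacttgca
The upstream starts of AMOTL2 and AJUBA had no copy, and counts per gene do not separate the starts. An E-box was found in 2 of the 10 promoters, those of LATS2 and YAP1 (at -203), against 7.26% of all promoters. The hypoxia response core ACGTG, searched on both strands and contained in every E-box, was held by 4 of the 10 promoters, those of YAP1 and LATS2 and both of AJUBA, and by 21.4% of all promoters. These matches describe letters in a window, and binding at them was not analysed here.

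**Figure D1:**
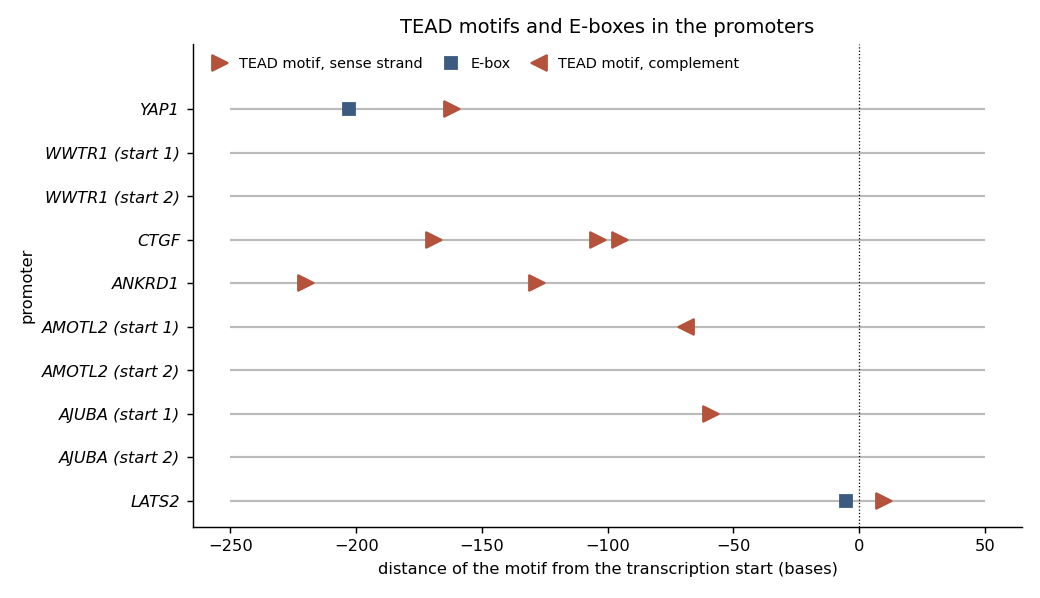
Distance of each TEAD motif (red triangles, pointing right on the transcribed strand and left for the complement) and each E-box (blue squares) from the transcription start, in bases, in 10 promoters of 7 genes. CTGF held 3 TEAD motifs and ANKRD1 held 2, all before the start, whereas the LATS2 motif lay 10 bases after it. For genes with 2 starts, start 1 has the lower coordinate, which on the minus strand is the downstream start.

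The libraries were even in depth, with 35269851 to 36099075 counts each, and 15551 genes passed the filter on low counts. All 10 YAP and TEAD genes were among them, and ANKRD1 passed through its shARNT counts alone. Each targeted gene was lowest in the cells with its own hairpin. ARNT averaged 50.5 CPM (counts relative to a library size corrected for composition with the TMM method) in shControl and 9.46 in shARNT, which is 18.8% of control, and 32.3 in shBMAL1. BMAL1, listed as ARNTL, averaged 16.3 CPM in shControl and 5.02 in shBMAL1, which is 30.9% of control, and 23.8 in shARNT. ARNT was thus also called lower in shBMAL1 (log2 change -0.65, edgeR adjusted p = 1.55e-08), at 63.9% of control. BMAL1 was called higher in shARNT (0.55, edgeR adjusted p = 8.29e-06). Both depletions changed a large part of the transcriptome, so a call for 1 gene says little without its size: the median absolute change of all genes was 0.66 on the log2 scale in shARNT and 0.32 in shBMAL1. All 9 markers of a list for renal epithelium and ccRCC lines were detected. Their summed level lay between 8050 and 8110 CPM in shControl, between 5920 and 6400 in shBMAL1 and between 2240 and 2410 in shARNT. Most of the sum was VIM, at means of 5974, 4309 and 812 CPM. The other markers of this list did not all follow the sum. In shBMAL1 PAX8 rose 1.13-fold (edgeR adjusted p = 0.0257) and all the others were called lower. In shARNT PAX8 rose 2.79-fold to 100.3 CPM (edgeR adjusted p = 2e-14), KRT18 had a log2 difference of -0.01 (adjusted p = 0.871), and the remaining 6 fell with VIM, among them CA9 by 71.9-fold. Of the 5 fibroblast markers, LUM was at 0 and COL1A2 at 3 counts or fewer in every library. The fibroblast sum lay between 231 and 245 CPM in shControl, between 34.2 and 37.3 in shBMAL1 and between 40.7 and 50.7 in shARNT, nearly all of it COL1A1. The 3 blood markers summed to at most 0.857 CPM and the 3 endothelial markers to at most 0.176. The part of these marker shifts in the results below was not tested, and in bulk RNA fewer cells with a transcript and less of it per cell cannot be told apart.

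In shARNT cells the targets and feedback genes were higher than in shControl, whereas YAP1, WWTR1, TEAD1 and TEAD4 changed by at most 1.46-fold and in both directions. AMOTL2 rose 4.61-fold, AJUBA 2.52-fold, LATS2 2.38-fold, CTGF 2.17-fold and CYR61 1.72-fold. In total, 8 of the 10 genes were called higher and 2 lower at an adjusted p under 0.1 in the edgeR quasi-likelihood test, against 40.5% and 41.3% of all genes tested (81.8% in either direction). ANKRD1 is 1 of the 8, and since it entered the test through its shARNT counts its call is not independent of the filter. The counts and the median below include it. With a fold change of at least 1.5 as well, 6 were higher and 0 lower, against 24.5% and 28.9% of all genes (53.4% together). The 3 shARNT libraries lay above all 3 shControl libraries for 8 genes and below them for 1, against 39.5% and 40.2% of all genes (79.8% together). The median change of the 10 genes was 0.95 on the log2 scale, beside -0.01 for all genes. Without ANKRD1 the middle value is that of CYR61, 0.78.

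In shBMAL1 cells 4 targets and feedback genes fell and 3 factors rose. CTGF fell 3.24-fold and AJUBA 2.22-fold, with smaller falls of AMOTL2 (1.39-fold) and CYR61 (1.17-fold), while YAP1, TEAD4 and TEAD1 rose by 1.39-fold, 1.34-fold and 1.23-fold. WWTR1, LATS2 and ANKRD1 did not pass the test. The counts of 3 genes called higher and 4 called lower are near the shares of all genes, 31.9% and 31.5% (63.4% in either direction). With the fold limit 0 were higher and 2 lower, against 11.2% and 12.4% of all genes (23.5% together). The groups did not overlap for 3 genes that were higher and 4 that were lower, against 31.4% and 30.8% of all genes (62.2% together), and the median change was -0.09 beside -0.0014 for all genes. This median includes ANKRD1, and without it the middle value is that of WWTR1, 0.05. Both contrasts use the same shControl libraries, so their values are given side by side and were not correlated.

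**Figure D2:**
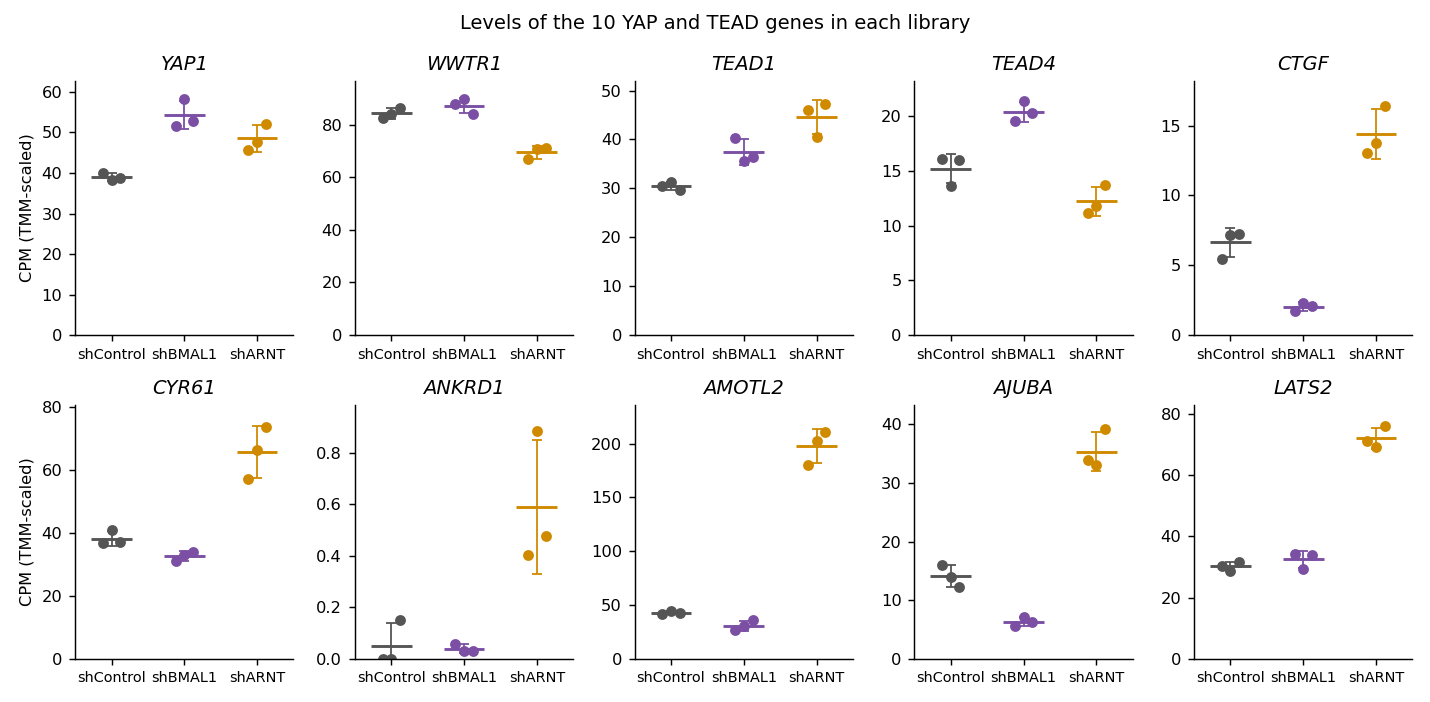
Level of each of the 10 genes in CPM (TMM-scaled, linear axis from 0) in the 9 libraries; points are libraries, horizontal lines are group means and error bars are SDs (n = 3). The shARNT points of CTGF, CYR61, ANKRD1, AMOTL2, AJUBA and LATS2 lie above every other point. The shBMAL1 points of CTGF, CYR61, AMOTL2 and AJUBA lie below all shControl points.

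Among the coactivators, YAP1 (chromosome 11, 101981178 to 102104155, plus strand, GRCh37) was higher in both depletions. Its level was 40.0, 38.2 and 38.7 CPM in the shControl libraries, 51.7, 58.1 and 52.9 in shBMAL1 and 45.7, 47.7 and 52.2 in shARNT. Every depleted library was above every control library, and the highest shARNT library lay inside the shBMAL1 range. The change was 0.48 ± 0.06 (log2, SE) in shBMAL1 (edgeR adjusted p = 1.24e-06) and 0.32 ± 0.06 in shARNT (adjusted p = 8.96e-05). The size of the shARNT change exceeded that of 25.4% of all genes, and that of the shBMAL1 change exceeded 66.3%.

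WWTR1 (chromosome 3, 149235022 to 149454501, minus strand), which encodes TAZ, did not follow YAP1. It was at 82.4, 84.1 and 86.4 CPM in shControl, at 87.7, 89.6 and 84.1 in shBMAL1 and at 66.8, 70.8 and 71.2 in shARNT. The shARNT libraries were the lowest 3, and those of the other groups overlapped. WWTR1 fell by 0.28 ± 0.05 in shARNT (edgeR adjusted p = 1.85e-05), but with scaling by library size alone this change was -0.04 (adjusted p = 0.443). In shBMAL1 the difference was 0.05 with a 95% interval from -0.05 to 0.14 (adjusted p = 0.396). The antisense gene WWTR1-AS1 had 3 to 26 counts in a library, against 2644 to 3087 for WWTR1, and the use of strand in counting was not stated.

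Levels per length let both coactivators be compared. Divided by the length of the MANE transcript, WWTR1 stood at 16.7 ± 0.395 CPM per kb (SD, n = 3) and YAP1 at 7.22 ± 0.172 in shControl. The ratio of YAP1 to WWTR1 was 0.432 in shControl, 0.581 in shBMAL1 and 0.650 in shARNT, and the 3 groups did not overlap in any pair (exact permutation test, two-sided p = 0.1 each). That p is the smallest that 3 against 3 libraries allow. Their sum averaged 27.3 CPM per kb in shBMAL1, beside 24.0 and 22.8 in shControl and shARNT. With TMM scaling the sum in shBMAL1 lay above both other groups, whereas shARNT and shControl overlapped (exact permutation p = 0.3). Unlike the ratio, the sum depends on the scaling factors, which were highest in shARNT, and it was not computed with library size alone. Under library size alone the change of WWTR1 in shARNT was -0.04, and YAP1 in shARNT exceeded shBMAL1 by 0.03. The positions of the sum are therefore given for TMM scaling only.

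TEAD1 and TEAD4 both rose in shBMAL1 and went in opposite directions in shARNT. TEAD1 (chromosome 11, 12695968 to 12966284, plus strand) was at 30.6, 31.3 and 29.7 CPM in shControl, at 40.4, 35.6 and 36.3 in shBMAL1 and at 45.9, 40.5 and 47.2 in shARNT. The 3 groups stood in that order without overlap. TEAD1 rose by 0.54 ± 0.07 in shARNT (edgeR adjusted p = 2.51e-07) and by 0.29 ± 0.07 in shBMAL1 (adjusted p = 0.00089), and shARNT exceeded shBMAL1 by 0.25 (adjusted p = 0.00162). TEAD4 (chromosome 12, 3068496 to 3149842, plus strand) was at 16.0, 13.6 and 16.0 CPM in shControl, at 19.5, 21.4 and 20.3 in shBMAL1 and at 11.1, 11.8 and 13.7 in shARNT. Its shBMAL1 libraries were the highest, and the highest shARNT library overlapped the lowest shControl library. TEAD4 rose by 0.42 ± 0.09 in shBMAL1 (edgeR adjusted p = 0.000404). It fell by 0.32 ± 0.09 in shARNT (adjusted p = 0.00373), a change of -0.08 (adjusted p = 0.429) with scaling by library size alone.

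The other paralogs, TEAD2 and TEAD3, complete the family. TEAD2 was the most abundant TEAD transcript per length, with 30.7 ± 0.933 CPM per kb in shControl, 23.0 ± 0.303 in shBMAL1 and 15.6 ± 0.395 in shARNT (SD, n = 3). It fell by 0.98 ± 0.05 (log2, SE) in shARNT (edgeR adjusted p = 3.07e-13) and by 0.42 ± 0.05 in shBMAL1 (adjusted p = 4.43e-07). TEAD3 fell by 0.34 in shARNT (edgeR adjusted p = 0.00196) and by 0.49 in shBMAL1 (adjusted p = 0.000129); with scaling by library size alone the shARNT change was -0.10 (adjusted p = 0.306). The summed level of TEAD1 to TEAD4 was 48.5 CPM per kb in shControl, 42.9 in shBMAL1 and 31.9 in shARNT. The share of TEAD1 in that sum was 6.70% in shControl, 9.27% in shBMAL1 and 14.8% in shARNT, while the share of TEAD2 was 63.3%, 53.6% and 48.9%. For these 3 quantities no pair of groups overlapped (exact permutation p = 0.1, the smallest possible). Over all 18 such tests of 6 composed values, 16 were without overlap and the smallest Benjamini-Hochberg adjusted p was 0.113.

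**Figure D3:**
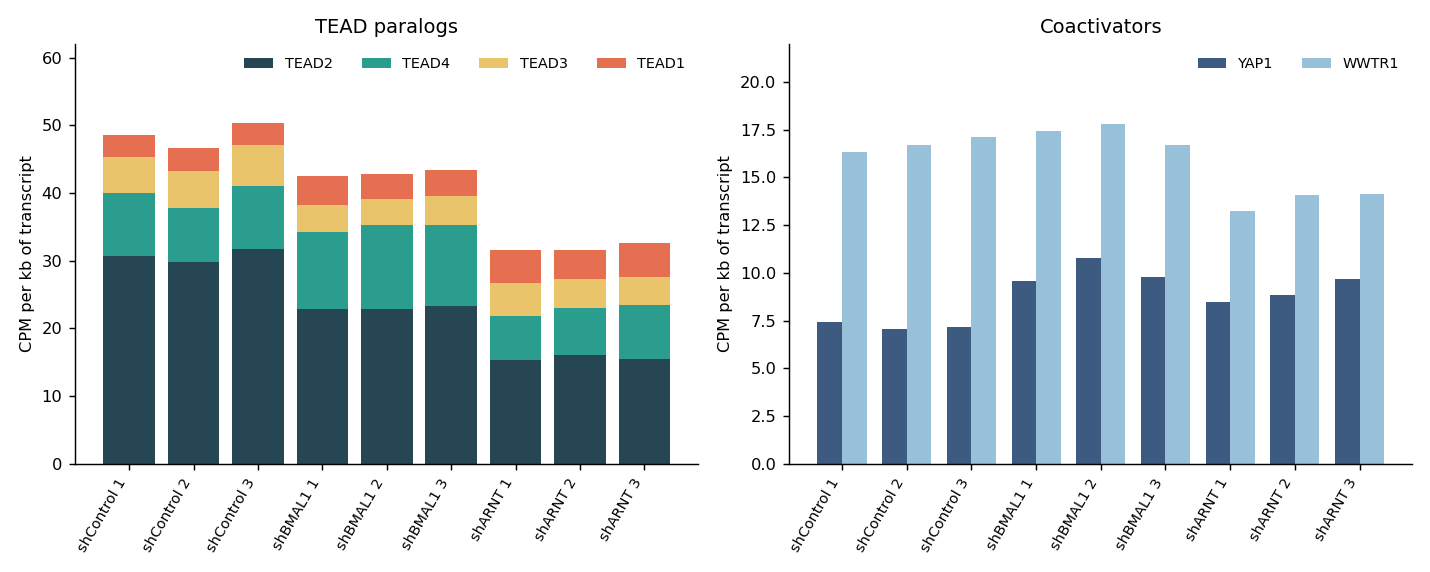
Left, stacked levels of the TEAD transcripts in each library, and right, levels of YAP1 and WWTR1, both in CPM per kb of MANE transcript on axes from 0; each bar is 1 library. The TEAD total averaged 48.5 in shControl, 42.9 in shBMAL1 and 31.9 in shARNT, with TEAD2 the largest component in every library, and WWTR1 exceeded YAP1 in all 9 libraries.

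Of the targets, CTGF (chromosome 6, 132269316 to 132272512, minus strand), a secreted matricellular protein with 3 TEAD motifs in its promoter, moved in opposite directions in the depletions. It had 5.47, 7.17 and 7.27 CPM in shControl, 1.73, 2.32 and 2.09 in shBMAL1 and 13.0, 13.8 and 16.4 in shARNT. The 3 groups did not overlap, and shControl lay in the middle. CTGF fell by 1.70 ± 0.16 in shBMAL1 (edgeR adjusted p = 1.31e-08) and rose by 1.12 ± 0.13 in shARNT (adjusted p = 8.48e-08). The shBMAL1 change exceeded in size that of 96.9% of all genes and the shARNT change that of 73.0%. These levels rest on 59 to 80 counts per library in shBMAL1, 182 to 240 in shControl and 516 to 652 in shARNT.

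CYR61 (chromosome 1, 86046444 to 86050272, plus strand), the close relative of CTGF, moved the same ways by smaller amounts. It was at 36.6, 40.8 and 37.1 CPM in shControl, at 31.0, 32.8 and 34.0 in shBMAL1 and at 57.1, 66.4 and 73.6 in shARNT. No 2 groups overlapped, and shARNT had the widest spread. CYR61 rose by 0.78 ± 0.07 in shARNT (edgeR adjusted p = 6.35e-09) and fell by 0.23 ± 0.08 in shBMAL1 (adjusted p = 0.0166). The fall was smaller in size than the shBMAL1 change of most genes, as it exceeded only 37.7% of them. Per length, CYR61 was more abundant than CTGF in every group, at 16.8 against 2.84 CPM per kb in shControl.

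ANKRD1 (chromosome 10, 92671853 to 92680844, minus strand), a cardiac ankyrin repeat protein widely used as a YAP reporter, was barely detected. The shControl libraries held 0, 0 and 5 counts, the shBMAL1 libraries 2, 1 and 1, and the shARNT libraries 16, 35 and 19. All shARNT libraries were above the others, and the 5 control counts came from shControl replicate 3. Over the summed counts the ratio of shARNT to shControl was 11.7, with a 95% interval from 4.78 to 37.1 that covers counting error only (70 against 5 counts). The fitted change was 3.46 ± 0.72, given without its p because the gene entered the test only through the group where it was high. Without shControl replicate 3 the control libraries were at 0, and the fitted value of 7.41 then depends on the prior count. In shBMAL1 no difference was detectable at this depth, with a ratio of 0.773 and an interval from 0.153 to 3.59 (4 against 5 counts).

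AMOTL2 (chromosome 3, 134074189 to 134094321, minus strand), an angiomotin family scaffold that binds YAP and restrains it, had in shARNT the largest change of the 10 genes relative to its error. It stood at 41.3, 44.3 and 42.9 CPM in shControl, at 26.8, 30.1 and 35.8 in shBMAL1 and at 180, 202 and 210 in shARNT. Every shARNT library was far above the highest control, and the shBMAL1 libraries were all below the controls. AMOTL2 rose by 2.21 ± 0.08 in shARNT (edgeR adjusted p = 4.62e-16), more in size than 93.1% of all genes, and fell by 0.47 ± 0.08 in shBMAL1 (adjusted p = 4.38e-05). Per length it passed from 8.80 CPM per kb in shControl to 40.6 in shARNT, where it was the most abundant of the 10 transcripts.

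AJUBA (chromosome 14, 23440386 to 23451760, minus strand), a LIM protein that inhibits LATS kinases, also moved in opposite directions. It was at 15.9, 14.0 and 12.2 CPM in shControl, at 5.59, 7.05 and 6.35 in shBMAL1 and at 33.8, 33.0 and 39.2 in shARNT. The 3 groups were well apart, again with shControl in the middle. AJUBA rose by 1.33 ± 0.10 in shARNT (edgeR adjusted p = 8.37e-11) and fell by 1.15 ± 0.11 in shBMAL1 (adjusted p = 2.85e-08), the latter larger in size than the change of 92.2% of all genes. A protein-coding model on the same strand that overlaps AJUBA in the annotation had no entry in the table, and how shared reads were assigned was not stated.

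LATS2 (chromosome 13, 21547175 to 21635725, minus strand), the kinase that phosphorylates YAP, rose in shARNT and did not pass the test in shBMAL1. It was at 30.4, 28.7 and 31.5 CPM in shControl, at 34.3, 29.3 and 33.8 in shBMAL1 and at 71.0, 69.1 and 75.9 in shARNT. The shARNT libraries were far above the rest, which overlapped. LATS2 rose by 1.25 ± 0.06 in shARNT (edgeR adjusted p = 2.76e-13). In shBMAL1 the difference was 0.10 with an interval from -0.03 to 0.24 (adjusted p = 0.19), and it passed the test without shBMAL1 replicate 2 (0.17, adjusted p = 0.0337). Its paralog LATS1 differed by 0.08 in shARNT (edgeR adjusted p = 0.489) and by -0.14 in shBMAL1 (adjusted p = 0.238), but neither value was settled. In shARNT it was called higher with scaling by library size alone (0.31, adjusted p = 0.00854) and without shControl replicate 1 (0.21, adjusted p = 0.0521), and in shBMAL1 it was called lower without shControl replicate 3 (-0.27, adjusted p = 0.0172). The ratio of LATS2 to LATS1 in CPM per kb was 2.16 ± 0.468 in shControl, 2.51 ± 0.331 in shBMAL1 and 4.78 ± 0.464 in shARNT (SD, n = 3).

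**Figure D4:**
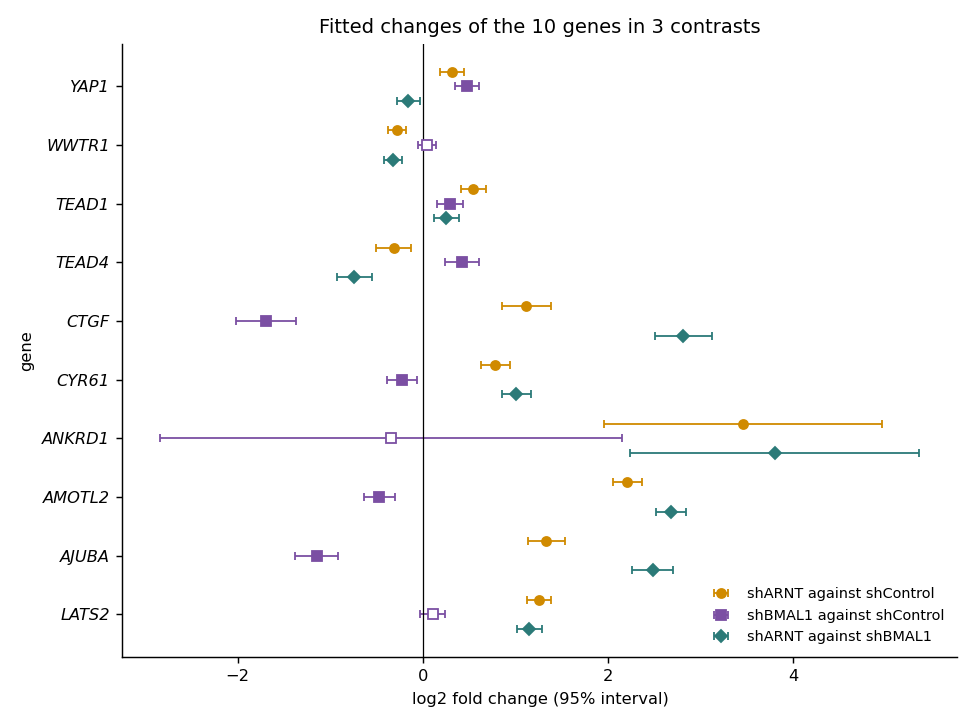
Fitted log2 fold change with its 95% interval for each of the 10 genes in 3 contrasts (circles, shARNT against shControl; squares, shBMAL1 against shControl; diamonds, shARNT against shBMAL1); open symbols did not pass an adjusted p under 0.1. CTGF, CYR61, AMOTL2 and AJUBA have intervals on opposite sides of 0 in shARNT and shBMAL1, and ANKRD1 has the widest intervals.

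The direct contrast of shARNT with shBMAL1 sets the depleted groups against each other. The control libraries enter it through the shared estimate of the spread and the scaling, and with the 6 depleted libraries alone the calls were again 7 higher and 3 lower. All 10 genes passed it, 7 higher in shARNT and 3 lower, against 40.1% and 41.1% of all genes tested (81.2% in either direction). ANKRD1 is 1 of the 7, and its call is again not independent of the filter. With a fold change of at least 1.5, 6 were higher, ANKRD1 included, and 1 lower, against 24.1% and 28.4% of all genes (52.6% together). The groups did not overlap for 7 genes higher and 2 lower, against 39.4% and 40.3% (79.6% together). CTGF was 7.03-fold higher in shARNT (edgeR adjusted p = 3.96e-13), AMOTL2 6.40-fold (adjusted p = 3.11e-17), AJUBA 5.58-fold (adjusted p = 1.46e-14), LATS2 2.22-fold (adjusted p = 1e-12) and CYR61 2.01-fold (adjusted p = 1.37e-10). The summed ANKRD1 counts gave a ratio of 15.1 with a counting interval from 5.65 to 57.0. TEAD4 was 1.67-fold lower (adjusted p = 2.34e-07) and WWTR1 1.25-fold lower (adjusted p = 2.37e-06). YAP1 was 1.12-fold lower (adjusted p = 0.0189) with groups that overlapped, and with scaling by library size alone the sign turned to 0.03 (adjusted p = 0.665). The median of the 10 genes, ANKRD1 included, was 1.08, beside -0.01 for all genes. Without ANKRD1 the middle value is that of CYR61, 1.01.

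The order of the 10 genes by level per length differed between groups. In shControl, CYR61 (16.8 CPM per kb) and WWTR1 (16.7) led and their libraries overlapped, followed by TEAD4 (8.90) and AMOTL2 (8.80), which also overlapped, then YAP1 (7.22) and LATS2 (5.44). AJUBA (3.37), TEAD1 (3.24) and CTGF (2.84) followed, with AJUBA libraries overlapping those of both others, and ANKRD1 came last at 0.0282. In shBMAL1, WWTR1 led at 17.3 before CYR61 at 14.3, TEAD4 at 11.9 and YAP1 at 10.0. AMOTL2 (6.35) and LATS2 (5.85) overlapped there, and AJUBA (1.52) and CTGF (0.875) stood below TEAD1 (3.97). In shARNT, AMOTL2 led at 40.6 before CYR61 at 28.8, and LATS2 (13.0) overlapped WWTR1 (13.8). AJUBA (8.48) overlapped both YAP1 (8.99) and TEAD4 (7.14), and CTGF (6.16) overlapped TEAD4. These are levels in CPM per kb, and the length is that of 1 annotated transcript per gene.

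Other regulators of the pathway were counted from a list of 30 genes, of which 27 were tested. VGLL1, VGLL3 and AMOTL1 had too few counts. In shARNT, 15 were higher, 10 lower and 2 not called, with a median of 0.22, where 40.5% of all genes tested were higher and 41.3% lower. In shBMAL1 10 were higher, 12 lower and 5 not called, with a median of -0.14, where 31.9% of all genes were higher and 31.5% lower. With the largest changes in shARNT, AMOT, the founding angiomotin, fell by 2.05 ± 0.09 (edgeR adjusted p = 2.34e-14), SCRIB, a cell polarity scaffold, rose by 1.64 ± 0.05 (adjusted p = 2.69e-17) and RASSF1, a partner of MST kinases, fell by 1.47 ± 0.09 (adjusted p = 1.05e-11). AMOT and AMOTL2, members of 1 family, thus moved in opposite directions in shARNT. In shBMAL1 the atypical cadherin FAT1 fell by 1.23 ± 0.10 (edgeR adjusted p = 1.66e-09), the MST adaptor SAV1 fell by 0.98 ± 0.09 (adjusted p = 1.64e-08) and the kinase TAOK3, which acts on MST kinases, fell by 0.92 ± 0.06 (adjusted p = 7.2e-11). In the direct contrast 15 were higher in shARNT, 8 lower and 4 not called, with a median of 0.22, where 40.1% of all genes were higher and 41.1% lower.

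Further YAP targets moved in both directions. A list of 17 genes from a published YAP and TAZ signature, written from memory and without the 10 genes, was tested in full. In shARNT 7 were higher and 10 lower, with a median of -0.30, where 81.8% of all genes tested were called. In shBMAL1 10 were higher, 4 lower and 3 not called, with a median of 0.27, where 63.4% of all genes were called. In the direct contrast 6 were higher in shARNT and 11 lower, with a median of -0.86, where 81.2% of all genes were called. These medians have the opposite sign to those of the 10 genes in shARNT and in the direct contrast. In shBMAL1 the negative median of the 10 genes (-0.09) rests on ANKRD1, which had 4 counts in shBMAL1 and 5 in shControl. Without ANKRD1 the middle value is that of WWTR1, 0.05. WWTR1 is a factor and not a target, so this value does not compare targets with targets. Of the other targets and feedback genes in shBMAL1, CTGF (-1.70), AJUBA (-1.15), AMOTL2 (-0.47) and CYR61 (-0.23) fell, and LATS2 (0.10) was not called. The difference between the lists was not tested. By the largest changes in shARNT, IGFBP3, a secreted binding protein for insulin-like growth factors, fell by 6.60 ± 0.04 (edgeR adjusted p = 1.06e-27), the coagulation initiator F3 fell by 1.86 ± 0.13 (adjusted p = 2.72e-11) and the kinase NUAK2 rose by 2.85 ± 0.09 (adjusted p = 2.22e-16). In shBMAL1 NT5E, the surface enzyme CD73, rose by 2.93 ± 0.08 (edgeR adjusted p = 8.37e-17), the stress gene GADD45A by 1.63 ± 0.10 (adjusted p = 5.77e-11) and CCDC80 by 0.89 ± 0.04 (adjusted p = 1.05e-13).

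**Figure D5:**
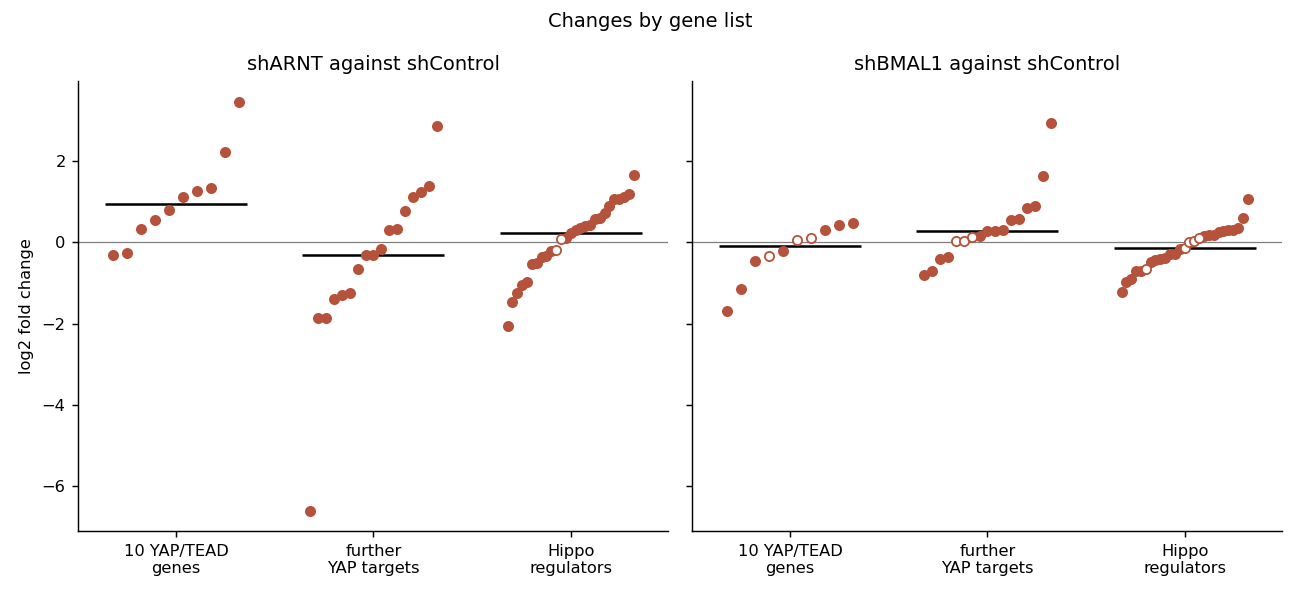
Log2 fold change against shControl of each tested gene of 3 lists (10 YAP and TEAD genes, 17 further YAP targets, 27 Hippo regulators), in shARNT on the left and shBMAL1 on the right; filled points passed an adjusted p under 0.1 and black lines are list medians. In shARNT the median was 0.95 for the 10 genes, -0.30 for the further targets and 0.22 for the regulators. The 0.95 includes ANKRD1, which entered the test through its shARNT counts, and without it the middle value is 0.78.

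The genes whose pattern was nearest to that of CTGF were ranked by the root mean square distance of log2 CPM, centred on the shControl mean, over the 9 libraries. Among 11218 candidates whose average log2 CPM was 2 or more, the nearest were ID1 (0.150), PRMT1 (0.202) and NACC2 (0.250). Their changes were 1.00, 1.27 and 0.83 in shARNT and -1.54, -1.73 and -1.51 in shBMAL1, beside 1.12 and -1.70 for CTGF. This is a description of 3 groups of libraries and says nothing of a shared function.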

How the data were processed

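RNA was measured in 9 A498 libraries, 3 biological replicates each of shControl, shBMAL1 and shARNT by the sample titles. Nothing further was given on how cultures were separated, so p-values measure the spread between these libraries. The study's methods describe paired-end sequencing on a BGISEQ-500, alignment to GRCh37 with SeqMan NGen and export from ArrayStar, whereas the submitters' processing notes list STAR, DESeq2 and hg38 without a role. Annotation release, strand use and multi-mapping were not given in the sources used here. The values the authors deposited are expected counts per gene, unnormalized, with a value of 0.05 for no reads, which was set to 0. They were rounded, and rows under 45 repeated names were summed, which gave 27671 genes from 27716 rows.

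Counts were tested in R 4.3.3 with edgeR 4.0.16 (quasi-likelihood F-test, TMM scaling, filterByExpr, all 9 libraries in 1 fit, group as the only factor, prior count 0.125), and p-values were adjusted by Benjamini-Hochberg over 15551 genes and called under 0.1. The common dispersion was 0.00311 with 13.3 prior degrees of freedom. SEs are the change divided by the root of F. The computation was tested on simulated data. Alternatives were other scalings (DESeq2 size factors, library size alone), no filter, DESeq2 1.42.0, the 6 libraries compared, the replicate number as a block, halved counts, a fold of at least 1.5 and leaving out each library. For shControl the scaling factors ranged from 0.932 to 0.944, for shBMAL1 from 0.961 to 0.971 and for shARNT from 1.10 to 1.11. Replicates differed by more than sampling noise (chi-square per gene 3.93 to 7.25).

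Named genes were the 10 members, ARNT and ARNTL, TEAD2, TEAD3 and LATS1, the 3 genes of each list with the largest called change against shControl (average log2 CPM of at least 2) and the 3 genes nearest to CTGF. AMOTL1, VGLL1 and VGLL3 were named as the untested list genes and the overlapping genes from the annotation, after their values were seen. Members and lists were chosen with earlier results of these data known. Positions and transcript lengths came from GENCODE release 44 lifted to GRCh37, and promoter sequences from RefSeq on GRCh38.p14, with no conversion between builds. Promoters of CYR61, TEAD1 and TEAD4 were not used here.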

Additional observations from a re-analysis of the deposited data

Results flagged for a closer look

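All 10 genes met 1 criterion for a closer look, namely that the effects of the depletions differed by the direct edgeR contrast of shARNT with shBMAL1 at an adjusted p under 0.1, which 81.2% of all genes also passed. The difference, as the shARNT effect minus the shBMAL1 effect on the log2 scale, was 2.81 for CTGF, 1.01 for CYR61 and 3.80 for ANKRD1, the last on 4 counts in shBMAL1 and tested only through its shARNT counts. It was 2.68 for AMOTL2, 2.48 for AJUBA and 1.15 for LATS2. Among the factors it was -0.16 for YAP1, -0.32 for WWTR1, 0.25 for TEAD1 and -0.74 for TEAD4. With groups of 3 libraries, single libraries were not tested as outliers.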

How the results depend on the processing

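Of 506 values of the 10 genes under the alternatives, 485 kept their direction and their side of the threshold. Scaling by library size alone moved the median of all genes from -0.01 to 0.23 in shARNT against shControl and to 0.05 and 0.18 in the other contrasts, and the share of calls that were higher from 49.6% to 60.5%, from 50.3% to 55.8% and from 49.4% to 58.6%. Under it, of the 10 genes 0 were lower in shARNT in place of 2 (WWTR1 and TEAD4), 5 were higher in shBMAL1 in place of 3 (WWTR1 at 0.10, adjusted p = 0.0868, and LATS2 at 0.15, adjusted p = 0.0557, were added), and YAP1 in the direct contrast turned from -0.16 to 0.0291.

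A fold limit of 1.5 is stricter by construction. The 10 genes then had 0 lower in shARNT, 0 higher and 2 lower in shBMAL1 and 1 lower in the direct contrast. The regulators had 8 higher and 5 lower in shARNT, 2 and 5 in shBMAL1, and 9 and 5 in the direct contrast, and the further targets had 4 and 2 in shBMAL1. Calls over all genes were 8300 in place of 12723, 3657 in place of 9852 and 8176 in place of 12630.

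Leaving out 1 library at a time gave 8 higher and 2 lower of the 10 genes in shARNT, 3 to 4 higher and 4 lower in shBMAL1, and 7 higher and 2 to 3 lower in the direct contrast. The 8 and the 7 include ANKRD1, which passed the filter through its shARNT counts. With all 9 libraries, 81.8%, 63.4% and 81.2% of all genes were called in these contrasts. The shares without 1 library are not given here. YAP1 missed the threshold in the direct contrast without shBMAL1 replicate 2 (-0.11, edgeR adjusted p = 0.13) or shARNT replicate 1 (-0.12, adjusted p = 0.109). Signs turned for 3 genes that were not called: ANKRD1 in shBMAL1 (3.61 without shControl replicate 3, range -0.90 to 3.61), LATS1 in shARNT, a gene with calls gained under other settings (-0.0518 without shControl replicate 3, range -0.0518 to 0.21) and SCRIB in shBMAL1 (-0.0055 without shControl replicate 1 and -0.0265 without shBMAL1 replicate 3, range -0.0265 to 0.0678). The cause was not tested. ANKRD1 in shARNT ranged from 2.90 to 7.41, and with halved counts it did not pass the filter.

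With the replicate number as a block, 8 and 2 of the 10 genes were called in shARNT, 3 and 4 in shBMAL1 and 7 and 3 in the direct contrast, the same counts as without it, and calls over all genes were 12684, 9833 and 12591. Same-numbered libraries did not consistently deviate together (r from -0.17 to 0.28 in 9 pairs over 11227 genes, 4 above 0.1). The numbers were therefore not taken to pair the samples. Differently numbered libraries reached r = 0.34 (shControl 2 with shARNT 1) and r = -0.23 (shControl 2 with shARNT 3). Deviations shared under other numbers were not modelled. Depth limits ANKRD1, at 0 to 5 counts outside shARNT.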
